A study of Mus musculus with 12 samples.

Results

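Expression of 10 genes of apoptotic cell clearance was followed in CD115+ monocytes of mouse spleen and peripheral blood. The genes were taken by symbol: the receptor tyrosine kinases Mertk, Axl and Tyro3, the bridging molecules and extracellular helpers Gas6, Pros1, Mfge8 and Tgm2, and the engulfment genes Lrp1, Elmo1 and Dock1. They are 10 of the 52553 features obtained when entries of the deposited tables were summed per gene. Each of the 10 has 1 row under its symbol, and all 10 passed the filter on low counts, which left 20135 features to test.

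The study examined liver regeneration after 70% resection in C57BL/6 male mice, and the monocyte libraries address how blood and splenic monocytes respond to it. Monocytes came from animals with spleen and liver intact and from animals 24 h after resection of 70% of the liver with the spleen in place. Each of the 4 groups (intact spleen, resected spleen, intact blood, resected blood) had 3 RNA-seq libraries, and each library pooled cells of 5 mice. Both tissues were depleted of other cells on a density gradient and sorted on anti-CD115 magnetic beads, and spleens had first been disaggregated, treated with collagenase and cleared of red cells. CD115, the product of Csf1r, is also carried by macrophages, so the sorted cells may hold macrophages as well. The labels give the 3 libraries of a group as separate pools, and p-values measure the spread between these pools. In bulk samples fewer cells of a type and less RNA per cell cannot be told apart.

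Libraries held 36990033 to 46401368 counts. Csf1r was present in every library, with group means from 346 CPM in intact blood to 898 CPM in resected spleen, where CPM are counts relative to the scaled total of their library. Haemoglobin genes took 13.2% to 34.2% of gene counts in blood libraries and 0.0814% to 3.47% in spleen libraries. A pair of libraries stood apart from their groups. Intact blood library 3 had a summed level of 6 T cell markers of 2263 CPM, against 710 and 722 CPM in the other intact blood libraries. Its 10 monocyte markers summed to 3573 CPM, against 9370 and 6471 CPM, and its 7 Kupffer cell markers to 368 CPM, against 53.2 and 26.2 CPM. Resected spleen library 3 had the lowest Vcam1 of the spleen libraries (377 CPM), the highest Marco (321 CPM) and a summed level of 9 neutrophil markers of 14449 CPM, against 5062 and 5377 CPM in its group. Results that rest on either library of this pair are given below with and without it. Resected blood library 3 also differed from its group, with the 9 neutrophil markers at 18856 CPM against 3565 and 4284 CPM. It is not counted in the pair, which was chosen after seeing the data. Its differences from the other libraries of its group were 282 and 329 times the sampling noise (chi-square per degree of freedom). Those of resected spleen library 3 were smaller, 192 and 214 times.

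Phagocytes find dying cells by phosphatidylserine on the cell surface. Gas6 and protein S (Pros1) bind this lipid and activate the TAM receptors Tyro3, Axl and Mertk, with Gas6 serving all of them and protein S serving Mertk and Tyro3, while Mfge8 ties the same lipid to integrins and extracellular transglutaminase 2 (Tgm2) assists the integrin. Lrp1 (CD91) recognises calreticulin on the dying cell, and Elmo1 with Dock1 activates Rac so that actin closes around the corpse. Mertk is characteristic of resting tissue macrophages and Axl of dendritic cells and activated macrophages, including macrophages of the splenic red pulp.

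Mertk, Pros1, Lrp1 and Tgm2 were the genes of the set that rose in blood monocytes after resection, as described below. The 250 bases before a RefSeq start site (build GRCm38.p6) are shown for Mertk, Pros1 and Lrp1 as genes that rose together, written 5′ to 3′ on the strand of the gene, with each GC box (GGGCGG on either strand, overlapping matches included) in capitals. The windows lie at chr2:128698665-128698914 (Mertk, plus strand), chr16:62854057-62854306 (Pros1, plus strand) and chr10:127621149-127621398 (Lrp1, minus strand).
Mertk: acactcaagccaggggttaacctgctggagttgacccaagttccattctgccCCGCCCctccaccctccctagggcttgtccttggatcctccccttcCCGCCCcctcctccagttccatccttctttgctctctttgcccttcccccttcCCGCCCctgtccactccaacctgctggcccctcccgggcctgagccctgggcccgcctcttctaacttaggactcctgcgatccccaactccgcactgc
Pros1: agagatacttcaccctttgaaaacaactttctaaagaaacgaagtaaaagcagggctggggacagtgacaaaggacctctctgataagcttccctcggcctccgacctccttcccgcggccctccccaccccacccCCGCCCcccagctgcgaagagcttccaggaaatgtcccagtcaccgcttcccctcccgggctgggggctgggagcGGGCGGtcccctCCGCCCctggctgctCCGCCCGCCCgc
Lrp1: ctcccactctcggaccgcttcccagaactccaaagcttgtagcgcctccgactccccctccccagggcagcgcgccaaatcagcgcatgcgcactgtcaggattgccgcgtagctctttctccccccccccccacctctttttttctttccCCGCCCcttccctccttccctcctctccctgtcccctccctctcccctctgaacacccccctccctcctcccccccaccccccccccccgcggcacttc
The Mertk window held 3 GC boxes at 63.6% GC, the Pros1 window 5 at 64.4% GC and the Lrp1 window 1 at 67.2% GC, against a median of 52.4% GC over all windows. A GC box was present in 9 of the 10 windows listed for 9 members (Elmo1 has 2 windows) and in 32.7% of 32851 windows of the same length. The nuclear receptor half-site AGGTCA (14.0% of all windows) and the AP-1 site TGANTCA (6.75%) matched none of the 10 member windows on either strand. The TATA box TATAAA matched 1 member window (12.4% of all windows) and the GAS element TTCNNNGAA matched 3 (7.02%). Matches were counted separately for each motif, whether or not they overlapped another motif, and they describe letters in the window only.

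**Figure D1:**
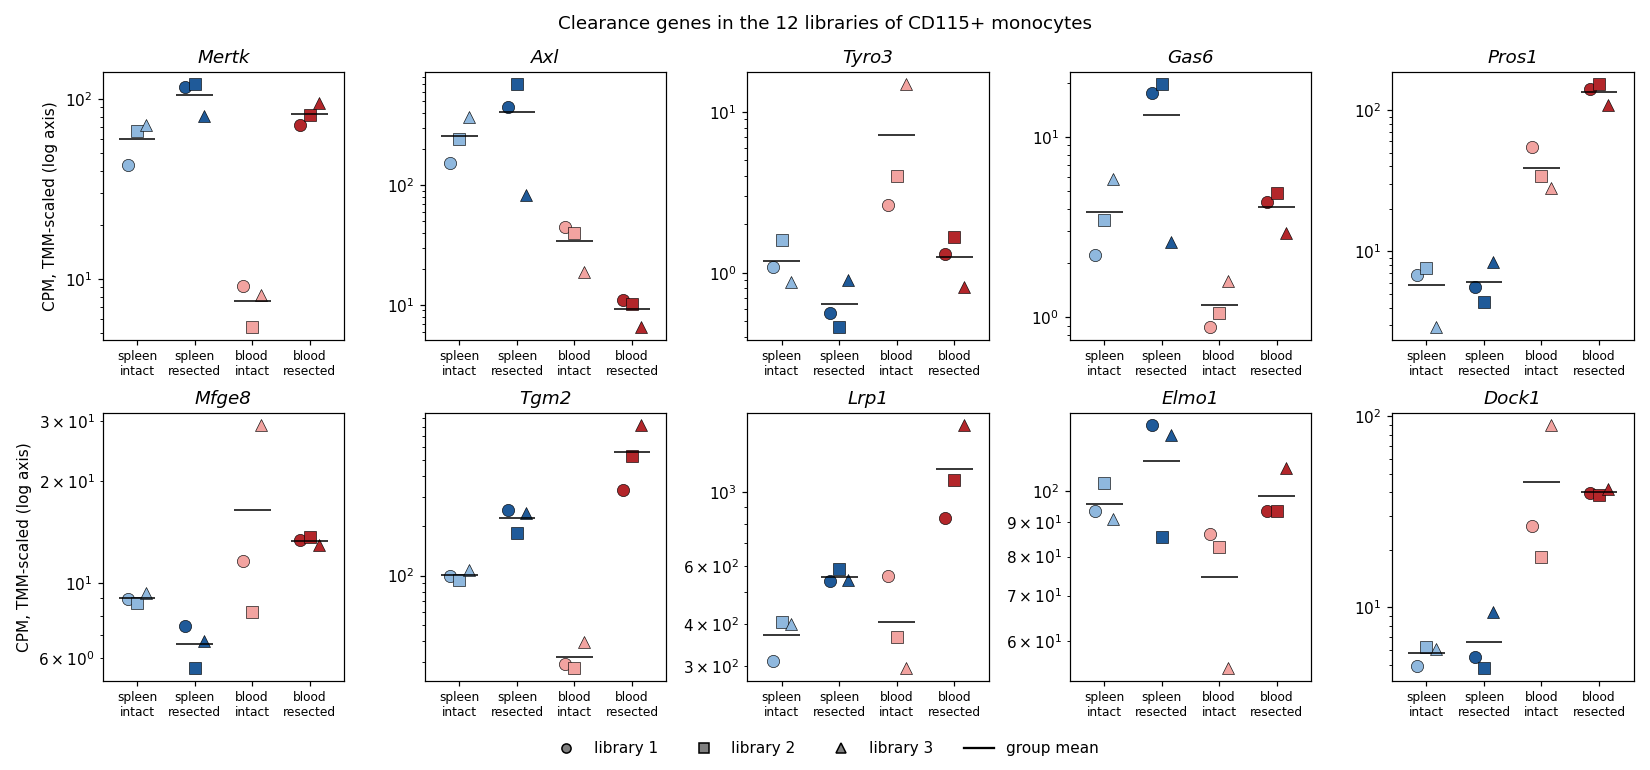
Level of each of the 10 genes in the 12 libraries, in CPM on a log axis, with 1 panel per gene, 1 column per group, the symbol shape giving the library number and a bar at the group mean. Mertk, Tgm2, Pros1 and Lrp1 lie higher in all 3 resected blood libraries than in the 3 intact blood libraries, and Tyro3, Mfge8 and Dock1 are highest in intact blood library 3.

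In blood monocytes, resection was accompanied by higher Mertk, Tgm2, Pros1 and Lrp1 and by lower Tyro3. These were 4 genes called higher and 1 called lower of 10 (edgeR's quasi-likelihood test, Benjamini-Hochberg adjusted p below 0.05 over all features and absolute log2 fold change above 1), against 7.80% of all features called higher and 6.11% called lower in the same comparison. The intact and resected blood libraries did not overlap for 8 of the 10 genes, against 38.4% of all features. The median log2 fold change was 0.96 over the 10 genes and -0.10 over all features tested. Without resected blood library 3, 992 of all features were called higher, against 1570 with all libraries.

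Among the TAM receptors, the 3 genes took different courses. Mertk stood at 9.17, 5.40 and 8.15 CPM in the 3 intact blood libraries and at 71.6, 81.6 and 94.7 CPM in the 3 resected ones. The lowest resected library was thus far above the highest intact library. The change was 10.9-fold (log2 fold change 3.45, SE 0.28, adjusted p = 0.000394), and it was called under all 22 alternative analyses. Axl, the receptor that responds to Gas6 alone, stood at 44.3, 39.6 and 18.9 CPM in intact blood and at 11.0, 10.1 and 6.50 CPM after resection. Its groups did not overlap, but the difference did not pass the test (log2 fold change -1.90, SE 0.67, adjusted p = 0.0686). Axl was called lower in 5 of 22 alternatives. Without the 2 libraries that stood apart its log2 fold change was -2.20 (adjusted p = 0.00583), and without resected spleen library 3 alone, which enters only through the shared spread, it was -1.90 (adjusted p = 0.0145).

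Tyro3, the third TAM receptor, fell in blood after resection (log2 fold change -2.51, SE 0.65, adjusted p = 0.0229). Its levels were 2.64, 4.01 and 14.9 CPM in intact blood and 1.31, 1.66 and 0.816 CPM after resection. The intact value of 14.9 CPM belongs to library 3, in which T cell markers were also highest. Without that library the log2 fold change was -1.40 and the call was lost (adjusted p = 0.0589). The call was also lost without resected blood library 1 (adjusted p = 0.0638), library 2 (adjusted p = 0.0529) or library 3 (adjusted p = 0.0864). T cell markers moved with Tyro3, since 5 of 6 were called lower in resected blood, and their summed level was 710 to 2263 CPM in intact blood and 126 to 253 CPM in resected blood. Their part in the fall of Tyro3 was not tested.

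Mertk can be set against Axl inside each library, where depth and scaling cancel. Intact blood libraries held 0.207, 0.136 and 0.431 Mertk counts per Axl count, and resected blood libraries held 6.53, 8.06 and 14.6. Intact spleen libraries held 0.279, 0.274 and 0.192 Mertk counts per Axl count. Intact blood and intact spleen therefore overlapped in this ratio, although the level of each receptor differed between them, and resected blood lay above all other libraries. In resected spleen the ratio was 0.257 and 0.174 in libraries 1 and 2 and 0.976 in library 3. The ratio compares libraries only, since counts of 2 genes also depend on transcript length.

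**Figure D2:**
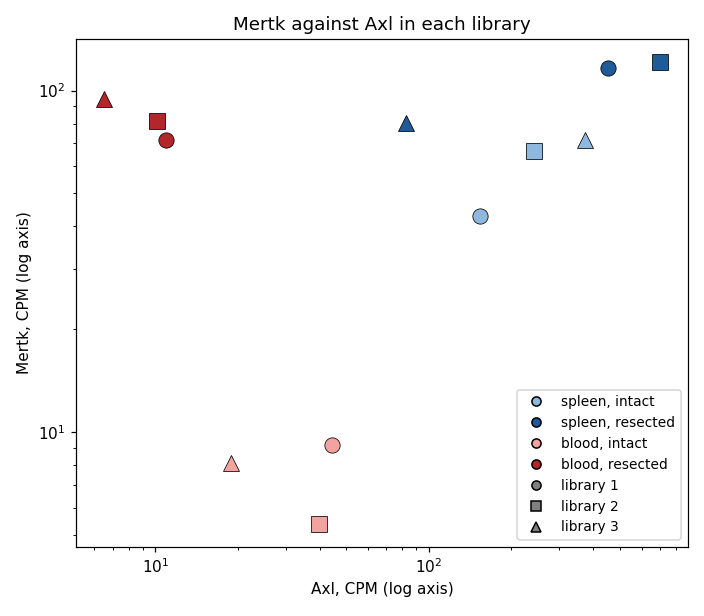
Mertk against Axl in each of the 12 libraries, both in CPM on log axes, with colour for the group and symbol shape for the library number. The 3 resected blood libraries lie at 71.6 to 94.7 CPM of Mertk with at most 11.0 CPM of Axl, while intact blood is at the bottom and the spleen libraries are to the right.

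Of the bridging molecules, Pros1 rose in blood and Gas6 did not pass the test. Pros1 encodes protein S, a vitamin K-dependent plasma protein that is also an anticoagulant cofactor. It stood at 54.4, 34.1 and 28.2 CPM in intact blood and at 142, 153 and 109.6 CPM after resection, without overlap (3.47-fold, log2 fold change 1.79, SE 0.39, adjusted p = 0.0113), and it was called in all 22 alternatives. Gas6 stood at 0.881, 1.05 and 1.60 CPM in intact blood and at 4.39, 4.93 and 2.96 CPM after resection. These groups did not overlap either, yet the difference missed the threshold (log2 fold change 1.79, SE 0.66, adjusted p = 0.0799) and was called in 4 of 22 alternatives, among them the fit without resected spleen library 3 (adjusted p = 0.0150).

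Mfge8, which bridges phosphatidylserine to integrins, stood at 11.6, 8.20 and 29.3 CPM in intact blood and at 13.4, 13.7 and 13.0 CPM after resection. The resected values fell inside the intact range, and the highest was again intact blood library 3. The log2 fold change was -0.30 (SE 0.38, adjusted p = 0.623), and without that library it was 0.42 (adjusted p = 0.147), so that even its sign rests on 1 library. Tgm2, the transglutaminase, had the largest log2 fold change of the 10 genes in blood. It stood at 29.1, 27.3 and 39.6 CPM in intact blood and at 329, 530.3 and 818 CPM after resection. All resected libraries were far above all intact ones (17.5-fold, log2 fold change 4.13, SE 0.33, adjusted p = 0.000394), and the call was made in all 22 alternatives.

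Of the engulfment genes, only the receptor Lrp1 passed the test. Lrp1 stood at 559, 368 and 295 CPM in intact blood and at 837, 1085 and 1586 CPM after resection, without overlap (2.87-fold, log2 fold change 1.52, SE 0.28, adjusted p = 0.00555), and was called in all 22 alternatives. Elmo1, the scaffold of the Rac activator, stood at 86.4, 82.7 and 54.6 CPM in intact blood and at 93.4, 93.5 and 109 CPM after resection (log2 fold change 0.40, SE 0.20, adjusted p = 0.174). Those groups did not overlap, but the difference was small against its error. Dock1, the exchange factor that pairs with Elmo1, stood at 26.8, 18.4 and 90.0 CPM in intact blood and at 39.4, 38.9 and 41.8 CPM after resection. Here the 90.0 CPM of intact blood library 3 set the sign: the log2 fold change was -0.17 (SE 0.50, adjusted p = 0.841) with it and 0.82 (adjusted p = 0.0722) without it.

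In splenic monocytes, no gene of the set passed the test after resection with edgeR. Of all features, 0.780% were called higher and 0.596% lower. At an unadjusted p below 0.05, 3 of the 10 genes and 4182 of all features stood out. DESeq2 called 2 of the 10 higher, Gas6 (adjusted p = 0.0459) and Tgm2 (adjusted p = 0.00353). It also called far more of all features than edgeR, 956 higher and 608 lower. The groups did not overlap for Mertk, Mfge8, Tgm2 and Lrp1, that is 4 of 10, against 35.1% of all features. The median log2 fold change was 0.39 over the 10 genes and 0.05 over all features.

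Tgm2 measured 99.1, 93.7 and 108 CPM in intact spleen libraries and 249, 181 and 238 CPM after resection (log2 fold change 1.15, SE 0.30, adjusted p = 0.0725). It was called higher in 6 of 22 alternatives, among them the fits without resected blood library 1 (adjusted p = 0.0496), resected blood library 3 (adjusted p = 0.0421) or intact blood library 3 (adjusted p = 0.0420). Mertk measured 42.8, 66.4 and 71.7 CPM in intact spleen libraries and 116, 121 and 80.5 CPM after resection (log2 fold change 0.81, SE 0.26, adjusted p = 0.115). For both genes every resected library was above every intact one, but the shift missed the threshold. Lrp1 measured 310.1, 406 and 401 CPM in intact spleen libraries and 539, 586 and 543 CPM after resection (log2 fold change 0.58, SE 0.28, adjusted p = 0.269). Mfge8 measured 8.94, 8.73 and 9.32 CPM in intact spleen libraries and 7.45, 5.59 and 6.71 CPM after resection (log2 fold change -0.45, SE 0.38, adjusted p = 0.551). For Mfge8 the resected libraries were the lower ones, without overlap.

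Axl and Gas6 in resected spleen were split by library. Axl stood at 154, 242 and 373 CPM in intact spleen and at 453, 698 and 82.4 CPM in resected libraries 1, 2 and 3 (log2 fold change 0.68, SE 0.64, adjusted p = 0.593). Gas6 stood at 2.23, 3.47 and 5.87 CPM in intact spleen and at 17.6, 19.7 and 2.61 CPM in the resected libraries (log2 fold change 1.79, SE 0.65, adjusted p = 0.159). Library 3 was the low one for both, and it also had the lowest Vcam1, a marker of red pulp macrophages. With resected spleen library 3 and intact blood library 3 left out, Gas6 was called higher in spleen (log2 fold change 2.28, SE 0.39, adjusted p = 0.0300), and Axl was not (log2 fold change 1.17, SE 0.37, adjusted p = 0.109). That fit called 310 of all features higher in spleen, against 157 with all libraries. No fit that left out only 1 library, resected spleen library 3 included, called Gas6 in spleen.

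The 4 other genes showed no separation in spleen. Tyro3 stood at 1.09, 1.61 and 0.873 CPM in intact and at 0.561, 0.458 and 0.910 CPM in resected spleen (adjusted p = 0.459). Pros1 stood at 6.78, 7.64 and 2.89 CPM in intact and at 5.56, 4.35 and 8.43 CPM in resected spleen (adjusted p = 0.939). Dock1 stood at 4.95, 6.22 and 6.02 CPM in intact and at 5.49, 4.78 and 9.44 CPM in resected spleen (adjusted p = 0.871). Intact and resected values of these genes were interleaved. For Elmo1 the levels were 93.4, 103 and 91.0 CPM in intact and 126, 85.5 and 121 CPM in resected spleen (adjusted p = 0.596), and they overlapped as well.

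The difference between the resection effects of both tissues was tested directly. It was called for 2 of the 10 genes, Mertk (difference in log2 fold change 2.63, SE 0.37, adjusted p = 0.0334) and Tgm2 (2.97, SE 0.42, adjusted p = 0.0334), both larger in blood, against 0.219% of all features called higher and 0.0646% called lower. Those shares are 44 and 13 features with edgeR, while DESeq2 called 657 and 506. The call was lost for Mertk in 8 of 21 alternatives and for Tgm2 in 9 of 21. The libraries whose removal ended it for Mertk were intact spleen 2 and 3, resected spleen 1 and 2, resected blood 2 and 3 and intact blood 2, with adjusted p from 0.0513 to 0.104. For Tgm2 they were the 3 intact spleen libraries, resected spleen 1 and 2, resected blood 2 and intact blood 1 and 2, with adjusted p from 0.0514 to 0.104. Axl (difference -2.58, SE 0.92, adjusted p = 0.215), Pros1 (difference 1.71, SE 0.54, adjusted p = 0.183) and Lrp1 (difference 0.94, SE 0.39, adjusted p = 0.260) did not pass. Without the 2 libraries that stood apart, Axl was called (difference -3.37, SE 0.53, adjusted p = 0.0339). No other of the 21 alternatives called Axl, and that fit called 248 of all features higher and 107 lower.

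**Figure D3:**
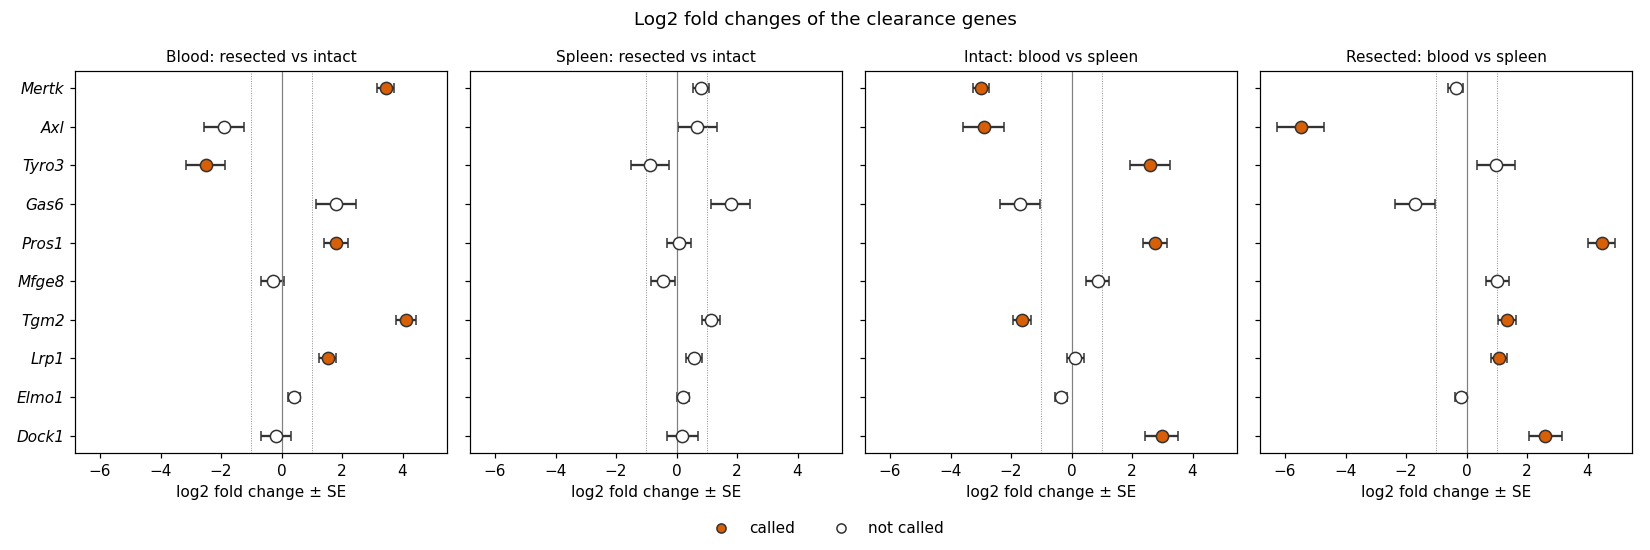
Log2 fold change of each gene in 4 comparisons, with bars of 1 SE and filled symbols for genes called by edgeR's quasi-likelihood test. Dotted lines mark the fold limit of 1 on the log2 scale. Mertk is at 3.45 for resection in blood and -2.99 for intact blood against intact spleen, and no symbol is filled for resection in spleen.

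Before resection, blood monocytes had less Mertk, Axl and Tgm2 than splenic monocytes and more Tyro3, Pros1 and Dock1. These were 3 genes called lower and 3 called higher in blood of 10, against 3.49% and 3.86% of all features, and the groups did not overlap for 8 of 10, against 34.5% of all features. Mertk was 7.96-fold lower in intact blood (log2 fold change -2.99, SE 0.28, adjusted p = 0.000655) and Pros1 was 6.74-fold higher (log2 fold change 2.75, SE 0.41, adjusted p = 0.00448), and both were called in all 22 alternatives. Axl was lower (log2 fold change -2.90, SE 0.68, adjusted p = 0.0294), but 9 of the 12 fits that left out 1 library lost the call, with adjusted p from 0.0509 to 0.10. The libraries concerned were the 3 intact spleen, the 3 intact blood, resected spleen 1 and resected blood 1 and 2. Leaving out both libraries that stood apart kept Axl lower (log2 fold change -2.50, adjusted p = 0.00872).

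Without intact spleen library 1 only Mertk and Pros1 kept their calls. Tgm2 was 3.13-fold lower in intact blood than in intact spleen (log2 fold change -1.65, SE 0.30, adjusted p = 0.0109), and only the fit without intact spleen library 1 lost the call (adjusted p = 0.0505). Dock1 was 7.87-fold higher in intact blood (log2 fold change 2.98, SE 0.54, adjusted p = 0.0109). Every intact blood library exceeded every spleen library for Dock1, also when the high library 3 is set aside, but the call was lost without intact spleen library 1 (adjusted p = 0.0526). Without intact blood library 3 the log2 fold change was 2.08 (adjusted p = 0.00340). Tyro3 was higher in intact blood (log2 fold change 2.59, SE 0.65, adjusted p = 0.0365). With intact blood library 3 set aside the estimate was 1.58 and the call was lost (adjusted p = 0.0639), as it was without any of the intact spleen libraries or without resected blood library 1 or 2 (adjusted p 0.0515 to 0.130). T cell markers moved with it: 5 of 6 were called higher in intact blood than in intact spleen, where their sum was 174 to 321 CPM. Their part in the level of Tyro3 was not tested.

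After resection Tgm2 turned from lower to higher in blood. Mertk, which had been lower in blood before resection, did not pass the test between resected blood and resected spleen (log2 fold change -0.36, SE 0.25, adjusted p = 0.355). Tgm2 was 2.51-fold higher in blood (log2 fold change 1.33, SE 0.30, adjusted p = 0.0138) than in spleen. Together 4 genes were called higher in blood (Pros1, Tgm2, Lrp1 and Dock1) and 1 lower (Axl), against 6.28% and 6.87% of all features, and 6 of 10 did not overlap, against 42.4% of all features. The comparisons share libraries and are not independent of each other.

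Axl and Pros1 marked the 2 tissues most widely after resection. Axl was 44.7-fold lower in resected blood than in resected spleen (log2 fold change -5.48, SE 0.77, adjusted p = 0.00200) and Pros1 was 22.1-fold higher (log2 fold change 4.46, SE 0.44, adjusted p = 0.000469). Without resected spleen library 2 the log2 fold change of Axl was -4.76 (adjusted p = 0.00741). Dock1 was 6.09-fold higher (log2 fold change 2.61, SE 0.53, adjusted p = 0.00933). Axl, Pros1, Tgm2 and Dock1 were called in all 22 alternatives. Lrp1 was 2.10-fold higher (log2 fold change 1.07, SE 0.28, adjusted p = 0.0252), just past the fold limit, and lost the call without resected spleen library 1 (adjusted p = 0.0660) or 2 (adjusted p = 0.0593) or resected blood library 2 (adjusted p = 0.0544) or 3 (adjusted p = 0.0779). Mfge8 did not pass (log2 fold change 1.02, SE 0.39, adjusted p = 0.0939), although its groups did not overlap. It was called in 5 of 22 alternatives, among them the fits without intact blood library 2 (adjusted p = 0.0280) or intact blood library 3 (adjusted p = 0.00211). Gas6 was not called between tissues before resection (log2 fold change -1.71, SE 0.66, adjusted p = 0.137) or after it (log2 fold change -1.70, SE 0.65, adjusted p = 0.0968). Without resected spleen library 3 it was called lower in blood in both states (-1.61, adjusted p = 0.0408, and -2.09, adjusted p = 0.0121).

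Ratios inside each library set the TAM ligands of both tissues apart. Intact blood libraries held 61.8, 32.4 and 17.7 Pros1 counts per Gas6 count and resected blood libraries 32.3, 31.1 and 37.1. Intact spleen libraries held 3.04, 2.21 and 0.493, and resected spleen libraries 0.316, 0.220 and 3.24. All 6 blood libraries were thus above all 6 spleen libraries, and the resected spleen library with 3.24 was the library 3 that stood apart. Elmo1 counts per Dock1 count were 15.1 to 18.9 in intact spleen and 12.9 to 22.9 in resected spleen. The same ratio was 3.23, 4.49 and 0.606 in intact blood and 2.37, 2.41 and 2.60 in resected blood, again below every spleen library.

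Over the 4 groups, mean Mertk was lowest in intact blood (7.57 ± 1.95 CPM, SD, n = 3), followed by intact spleen (60.3 ± 15.3 CPM), resected blood (82.7 ± 11.6 CPM) and resected spleen (106 ± 22.3 CPM). Intact spleen and resected blood, with highest and lowest libraries of 71.7 and 71.6 CPM, met at their edges, and resected blood overlapped resected spleen. For Axl the order was resected blood (9.19 ± 2.37 CPM), intact blood (34.3 ± 13.5 CPM), intact spleen (256 ± 110 CPM) and resected spleen (411 ± 310 CPM). The spleen groups overlapped. For Pros1 the order was intact spleen (5.77 ± 2.53 CPM), resected spleen (6.11 ± 2.10 CPM), intact blood (38.9 ± 13.8 CPM) and resected blood (134.9 ± 22.6 CPM), and only the spleen groups overlapped. Tgm2 ran from intact blood (32.0 ± 6.61 CPM) through intact spleen (100.3 ± 7.30 CPM) and resected spleen (223 ± 36.8 CPM) to resected blood (559 ± 246 CPM), with no overlap between neighbours.

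The genes whose pattern over the 12 libraries was closest to each TAM receptor were found by the root mean square difference of centred log2 CPM among 15670 genes with a symbol. This is a description, since all genes share the same libraries. For Mertk they were Adap2 (difference 0.357 log2 units), Npl (0.392) and Cystm1 (0.411), against an SD of Mertk itself of 1.54. Adap2 ranged from 2.98 to 4.90 CPM in intact blood and from 21.4 to 35.4 CPM in resected blood. For Axl they were Hpgd (0.529), which inactivates prostaglandins, the adhesion molecule Cadm1 (0.533) and the adrenergic receptor Adrb1 (0.568), against an SD of 2.23. Hpgd shared the split of resected spleen, from 4.18 to 54.1 CPM. For Tyro3 they were the chemokine receptor Ccr4 (0.391), the T cell coreceptor Cd4 (0.401) and Ramp1 (0.405), against an SD of 1.28, and Cd4 was among the T cell markers used above.

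Other genes of apoptotic cell clearance were read from 7 lists of 86 genes, 80 of them tested. In blood after resection 27 were called higher (33.8%, against 7.80% of all features) and 2 lower (2.50%, against 6.11%), with a median log2 fold change of 0.67, against -0.10 over all features. The count called higher ranged from 18 to 33 over the alternatives and was 23 without the 2 libraries that stood apart, while the count called lower was 4 without resected spleen library 3 and 1 without resected blood library 2 or 3. Over all features, 1644 were called higher without the 2 libraries that stood apart. Without resected blood library 2 or 3, 648 and 635 of all features were called lower. Among other bridges and eat-me molecules, 7 of 9 tested genes rose. They included calreticulin (Calr, log2 fold change 1.11, adjusted p = 0.00309), which is the ligand of Lrp1, the phosphatidylserine-binding annexins Anxa1 (3.30, adjusted p = 0.00395) and Anxa5 (1.08, adjusted p = 0.00757), and C1qb (1.76, adjusted p = 0.0140), a chain of the complement opsonin C1q. Among other uptake receptors, 4 of 15 rose: Cd300lf (4.12), Cd93 (2.51), the TIM family receptor Havcr2 (2.87) and the phosphatidylserine receptor Stab1 (3.18). Timd4, the TIM receptor of resident macrophages, was not called (log2 fold change 0.34, adjusted p = 0.550).

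Of 17 tested genes of the engulfment machinery 6 rose in blood, including the adaptor Bcar1 (2.49), the small GTPase Rhog (1.27), which acts upstream of Elmo, the exchange factor Dock5 (2.26) and the lipid transporter Abca1 (1.19). Of 9 genes that process or follow TAM receptors 3 rose: the sheddase Adam17 (1.26), which cleaves Mertk from the surface, and the feedback inhibitors Socs3 (2.61) and Twist1 (2.97). Of 8 find-me and do-not-eat-me genes the nucleotide receptor P2ry2 (4.23) and Cd24a (1.08) rose and the fractalkine receptor Cx3cr1 (-2.20) fell. Of 14 corpse digestion genes the lysosomal nuclease Dnase2a (2.09), Lamp1 (1.56), Lamp2 (1.86) and Rab7 (1.06) rose, and Rubcn, which is needed for LC3-associated phagocytosis, fell (-1.52). Of 8 nuclear receptors of the clearance program 1 rose, the circadian repressor Nr1d1 (2.73, adjusted p = 0.00217), while the oxysterol and fatty acid sensors on the list were not called.

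**Figure D4:**
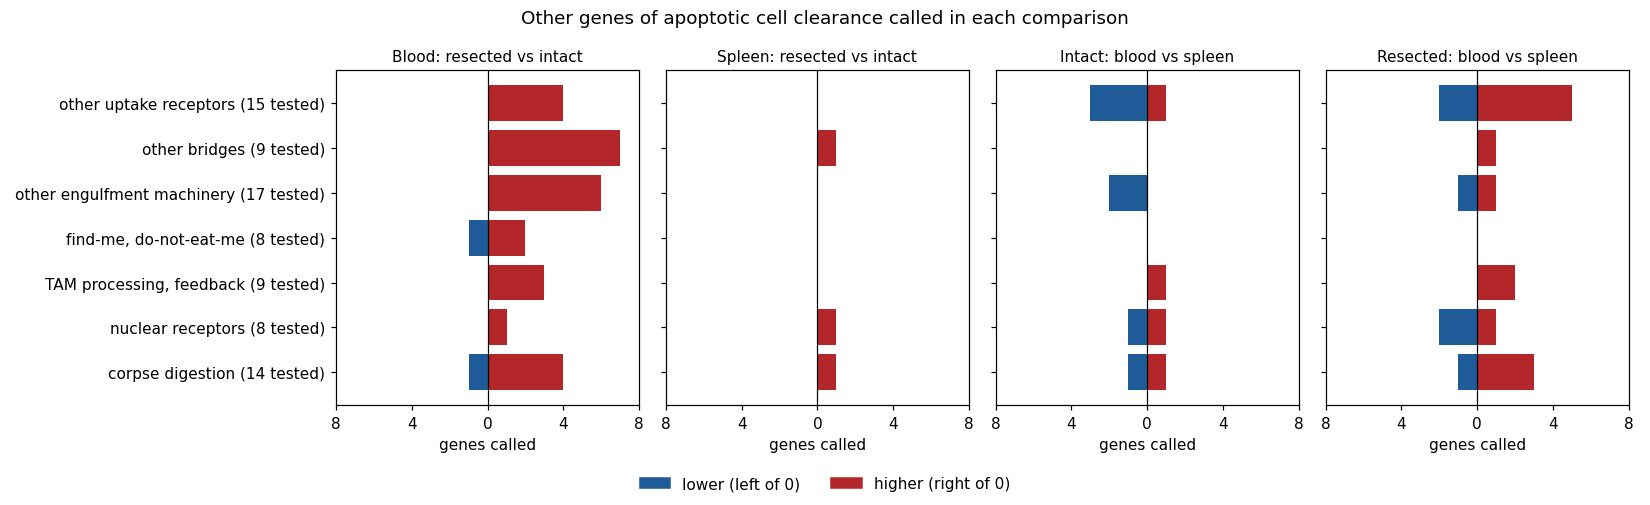
Number of genes of each of 7 lists called lower (left of 0) or higher (right of 0) in 4 comparisons, with the number tested beside each list. For resection in blood 7 of 9 other bridges and 6 of 17 genes of the engulfment machinery are called higher, and for resection in spleen 3 genes are called in all.

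In spleen after resection 3 of the 80 genes were called higher (3.75%, against 0.780% of all features) and none lower (edgeR, 0 to 2 called lower over the alternatives, 2 with DESeq2 and 1 without intact blood library 3). They were Nr1d1 (log2 fold change 2.94, adjusted p = 0.0183), Map1lc3a (1.32, adjusted p = 0.0253), an LC3 protein, and Anxa1 (2.58, adjusted p = 0.0467). Anxa1 and Nr1d1 were called in blood as well. The count called higher was 0 without intact spleen library 1 or 2 or resected spleen library 3, 7 without intact blood library 3 and 12 without both libraries that stood apart. In the same order, these fits called 1, 3, 13, 626 and 310 of all features higher.

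Between intact tissues, 4 of the 80 genes were called higher in blood (5.00%, against 3.86% of all features) and 7 lower (8.75%, against 3.49%). Between resected tissues 13 were called higher (16.2%, against 6.28%) and 6 lower (7.50%, against 6.87%). The 4 higher and the 6 lower were thus close to the share over all features. In intact animals these counts were 1 or 2 higher without any intact spleen library or without intact blood library 1 or 2, and 3 or 4 lower without any intact spleen library, intact blood library 2 or 3 or resected blood library 2. With 1 library left out, all features called between intact tissues ran from 306 to 1001 higher and from 225 to 586 lower. After resection 21 of the 80 genes were called higher without resected spleen library 3. With 1 library left out, all features called higher between resected tissues ran from 849 to 1814, against 1264 with all libraries. Stab2 was lower in blood in both states. It was counted at most 3 times in any resected blood library against a mean of 53.4 CPM in resected spleen, at least 524-fold lower when the floor of 3 counts per library is used. Timd4 was higher in blood in both states (log2 fold change 1.79, adjusted p = 0.0212, before and 3.06, adjusted p = 0.00152, after resection), and the oxysterol receptor Nr1h3 was lower in both (-2.60, adjusted p = 0.00978, and -3.09, adjusted p = 0.00254). No gene of the 80 was called for the difference between tissues with edgeR, where 3484 of all features had an unadjusted p below 0.05, while DESeq2 called 11 higher and 1 lower and the fit without resected spleen library 3 called 2 higher and 1 lower. Over all features DESeq2 called 657 higher and 506 lower for the difference, and the fit without that library called 75 higher.

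The 10 monocyte markers were above 0 in every library, with sums from 3436 CPM in intact spleen to 15017 CPM in resected blood. Markers of other cells that can carry CD115 or pass the gradient moved with several of these genes. Of 11 markers of large peritoneal macrophages, a cell type that carries Mertk and Timd4, 8 were higher by the test in resected than in intact blood. Their summed level was 4290 to 8250 CPM in intact blood and 23912 to 33398 CPM in resected blood, against 396 to 554 CPM in intact spleen and 773 to 2707 CPM in resected spleen. Gata6, the factor that defines these cells, was at 2.85 to 5.86 CPM in intact blood and at 17.7 to 23.7 CPM in resected blood, and at no more than 0.163 CPM in spleen. All blood libraries therefore held Gata6 transcripts, and resected blood held the most. Their part in the levels of Mertk, Tgm2, Pros1, Lrp1 and Timd4 was not tested.

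Of 9 red pulp macrophage markers, 7 passed the test upwards in resected blood and 1 in resected spleen, and the sums were 485 to 839 CPM in intact blood, 3024 to 3631 CPM in resected blood, 1389 to 2026 CPM in intact spleen and 2554 to 4889 CPM in resected spleen. Between tissues the markers were mixed: 4 of 9 were called lower in blood and 0 higher before resection, and 3 lower and 1 higher after it. Vcam1 was at most 4.78 CPM and Spic at most 6.42 CPM in blood, against at least 377 and 31.3 CPM in spleen. Mean Adgre1 was instead higher in resected blood (914 CPM) than in resected spleen (169 CPM), as was mean Cd163 (242 and 203 CPM). Neutrophil markers were called higher for 9 of 9 genes in blood and 2 of 9 in spleen, with sums of 104 to 327 CPM in intact blood, 3565 to 18856 CPM in resected blood, 855 to 1889 CPM in intact spleen and 5062 to 14449 CPM in resected spleen. Markers of platelets, which themselves store protein S, were called higher in blood than in spleen for 8 of 8 genes in both states and for 1 of 8 in blood after resection. Their sum was 90.2 to 323 CPM in intact blood and 830 to 916 CPM in resected blood, without overlap, against at most 31.1 CPM in spleen. Of 7 conventional dendritic cell markers, 4 were called lower in intact blood than in intact spleen, and 3 were after resection. Their sums were 689 to 744 CPM in intact spleen, 328 to 622 CPM in resected spleen, 100 to 361 CPM in intact blood and 153 to 229 CPM in resected blood. The part of red pulp macrophages, neutrophils, platelets, dendritic cells and Kupffer cells in the levels of the clearance genes, Pros1 and Axl included, was not tested. The 7 Kupffer cell markers, of which 6 were tested and 1 was called higher in blood after resection and 0 in spleen, summed to 26.2 to 368 CPM in intact blood, 494 to 756 CPM in resected blood, 64.0 to 88.2 CPM in intact spleen and 382 to 477 CPM in resected spleen, with median log2 fold changes after resection of 1.95 in blood and 2.37 in spleen. Their sums were thus higher after resection in both tissues. Clec4f, which defines Kupffer cells, was at no more than 0.334 CPM in any library and at 0 in all 6 resected ones. Hepatocyte markers summed to at most 1.97 CPM, in intact blood library 3. The 6 B cell markers summed to 4556 to 5162 CPM in intact spleen and 1233 to 3950 CPM in resected spleen. In blood they summed to 537 to 2406 CPM before and 781 to 1862 CPM after resection. The part of B cells in the levels of the clearance genes was not tested.

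**Figure D5:**
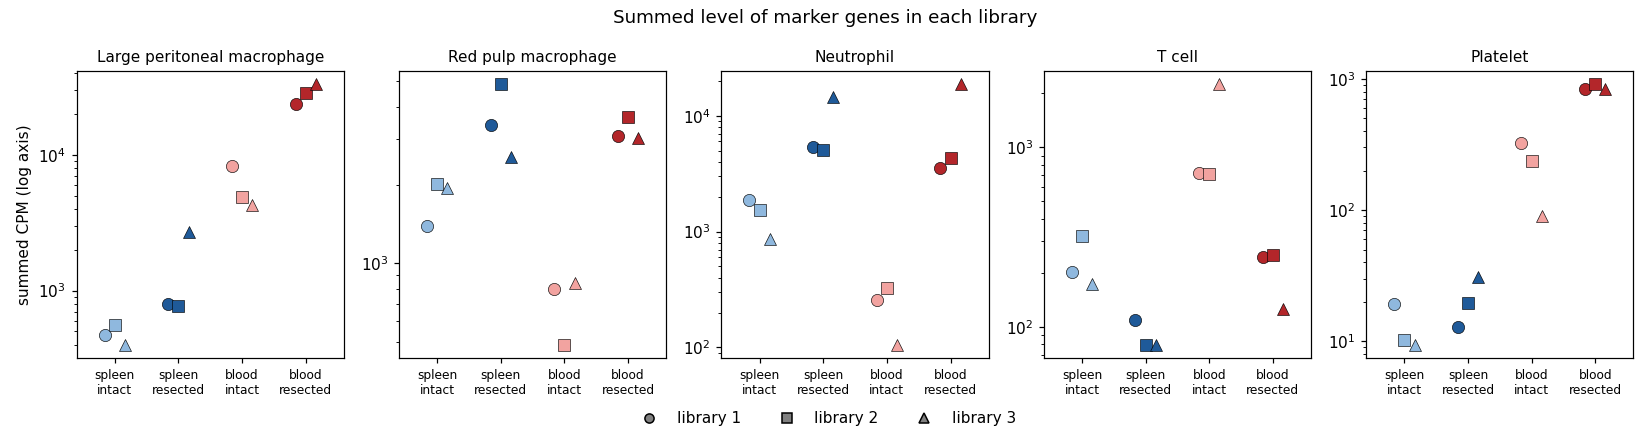
Summed CPM of 5 marker lists in the 12 libraries on a log axis, with 1 panel per cell type, 1 column per group and symbol shape for the library number. Markers of large peritoneal macrophages reach 23912 to 33398 CPM in resected blood, and T cell markers are highest in intact blood library 3 at 2263 CPM.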

How the data were processed

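The authors isolated CD115+ monocytes on magnetic beads and sequenced strand-specific mRNA libraries. The submitters' processing notes name STAR and genome build GRCm39, and the counting tool is not given in the sources used here. The deposited files hold estimated counts per RefSeq entry, 1 file per library, per the file headers without normalization. Rows without a gene name took 1.75% to 4.33% of each library's counts and entered neither library sizes nor tests. Of 40274 accession entries, 25340 matched a symbol of a RefSeq table (GRCm38.p6) and were summed per gene, and the sums were rounded to whole counts, which gave 52553 features. Promoter sequences came from RefSeq windows of the same build.

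Features that passed filterByExpr (20135) were fitted with edgeR 4.0.16 (R 4.3.3, TMM factors 0.661 to 1.26, glmQLFit with robust estimation, no covariates) over all 12 libraries in 4 groups. Calls needed an absolute log2 fold change above 1 and, over all features, a Benjamini-Hochberg adjusted p below 0.05. Levels are CPM on TMM-scaled library sizes. SE is the log2 fold change divided by the square root of F. Centred log2 CPM used a prior count of 2. At a floor of 3 counts the libraries resolve 0.0626 to 0.102 CPM, which covers counting error only. Each of the pairs of libraries within a group differed by 19.7 to 575 times the sampling noise (chi-square per degree of freedom), so none was counted as a repeat of another. The fit was tested on simulated counts with a dispersion of 0.05, below the common dispersion of these data (0.312). That test therefore does not show how the fit performs at their spread. Alternatives were DESeq2 1.42.0, RLE factors, other filters on low counts, no fold limit, haemoglobin genes left out, entries as deposited, only the groups compared, a replicate block, each library left out and, chosen after seeing the data, both libraries that stood apart left out. The alternative with no fold limit is the main fit with that limit dropped, so a gene already called keeps its call there.

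The 10 genes, the 7 clearance lists and the marker lists were chosen with earlier results of these data known, so no p-value over a list is given. The text names all 10 genes, up to 4 called genes per list and comparison by smallest p, the 3 genes most like each TAM receptor, and marker genes beside a result. Timd4 in blood after resection, which was not called, and Rubcn, the fifth called gene of its list, were named after their values were seen.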

Additional observations from a re-analysis of the deposited data

Results flagged for a closer look

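The resection effect on Mertk differed between tissues by 2.63 on the log2 scale (SE 0.37), from 3.45 in blood to 0.81 in spleen, and that on Tgm2 differed by 2.97 (SE 0.42), from 4.13 in blood to 1.15 in spleen. Both were picked out by the test of the difference itself (edgeR's quasi-likelihood interaction, adjusted p = 0.0334 for each). The calls of the difference were lost in 8 and 9 of 21 alternatives. Every resected library was above every intact one in both tissues, but groups did not overlap for 38.4% of all features in blood and 35.1% in spleen. Neither gene was called by edgeR in spleen alone (adjusted p = 0.115 for Mertk and 0.0725 for Tgm2).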

How the results depend on the processing

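Over 22 alternatives (21 for the difference between tissues), Mertk, Tgm2, Pros1 and Lrp1 in blood after resection, Mertk and Pros1 between intact tissues, and Axl, Pros1, Tgm2 and Dock1 between resected tissues held direction and call. Leaving out the haemoglobin genes moved the median log2 fold change of all features between tissues from -0.02 to 0.10 before and from -0.14 to -0.02 after resection, and no scaling turned the sign of any of the 10 genes. Counts of calls were the least stable results, and the cause was not tested. The floor of 3 counts, 0.0626 to 0.102 CPM, lay below the lowest level of any of the 10 genes (Tyro3, 0.458 CPM).

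Of 18 pairs of same-numbered libraries the deviations correlated at -0.0460 to 0.189, and a library correlated best with its own number in 9 of 18. The 2 values above 0.1 were both between resected spleen and resected blood (0.131 for number 2 and 0.189 for number 3, against 0.0420 for number 1). Whether same-numbered libraries of those groups share mice cannot be told from these values, and the main fit used no pairing. With a replicate block the calls of Tyro3 in blood (adjusted p = 0.0615) and between intact tissues (0.0820), of Lrp1 between resected tissues (0.0535) and of Mertk (0.112) and Tgm2 (0.0544) for the difference were not made, so that 0 of the 10 genes were called lower in blood and 0 for the difference between tissues, the log2 fold change of Dock1 in blood was 0.0885, and over all features 83 were called higher and 67 lower in spleen and 0 and 1 for the difference. Among the 10 genes DESeq2 called 2 lower in blood and 2 higher in spleen, a minimum of 10 counts in every library called 2 and 1, and a fit of only the groups compared called 1 higher in spleen and 1 higher between intact tissues.

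Over all features DESeq2 called 956 higher and 608 lower in spleen (157 and 120 as reported), 1384 and 1184 between intact tissues (778 and 702), 1931 higher between resected tissues (1264) and 657 and 506 for the difference (44 and 13). Without a filter on low counts 56 were higher and 45 lower in spleen, 416 lower between intact and 922 lower between resected tissues (1384), and 16 and 6 for the difference. A minimum of 10 counts gave 284 and 205 in spleen and 81 higher for the difference. With no fold limit 2074 were lower in blood (1231), 207 lower in spleen and 2130 lower between resected tissues. Only the groups compared gave 513 lower in blood and 410 and 386 between intact tissues.

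Leaving out intact blood library 3 and resected spleen library 3 together was chosen after seeing the data. Of the 10 genes it called 2 lower in blood (Axl and Tyro3), 1 higher in spleen (Gas6), 2 lower between resected tissues (Axl and Gas6) and 1 lower for the difference (Axl). Signs turned for Mfge8 (0.42) and Dock1 (0.82) in blood, Pros1 (-0.22) and Dock1 (-0.16) in spleen, and Gas6 (-0.20) and Dock1 (0.98) for the difference. Over all features it called 310 and 227 in spleen, 2171 higher between resected tissues and 248 and 107 for the difference.

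With each library left out in turn, all features called higher and lower ran from 992 to 1637 and 635 to 1232 in blood, 1 to 626 and 0 to 399 in spleen, 306 to 1001 and 225 to 586 between intact tissues, 601 to 1811 lower between resected tissues, and 1 to 75 and 4 to 24 for the difference. Of the 10 genes, 0 to 2 were called lower in blood, 0 to 1 higher in spleen, 1 to 4 in each direction between intact tissues, 1 to 2 lower between resected tissues and 0 to 2 higher for the difference. Log2 fold changes that crossed 0 ran from -0.56 to 0.42 for Mfge8 and -0.49 to 0.82 for Dock1 in blood, -0.25 to 0.34 for Pros1 and -0.16 to 0.38 for Dock1 in spleen, -0.12 to 0.42 for Lrp1 between intact tissues, -0.23 to 0.0267 for Elmo1 between resected tissues, and -0.48 to 0.41 for Gas6, -0.10 to 0.87 for Mfge8 and -0.67 to 0.62 for Dock1 for the difference.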
